A study of Mus musculus with 2 samples.

Results

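The genes described here encode 36 subunits of transmitter-gated ion channels, and they were followed in total RNA of the mouse hindbrain at 10.5 days of embryonic development. They were chosen by symbol: 11 subunits of GABA-A receptors, 4 of glycine receptors, 4 of AMPA receptors, 5 of kainate receptors, 6 of NMDA receptors and 6 of nicotinic acetylcholine receptors. All 36 were matched by gene identifier in both gene tables, and they are 36 of 43346 annotated genes and of 21461 protein-coding genes outside the mitochondrial genome.

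The study sequenced 1 group only, hindbrains of strain B6NCrl embryos of both sexes, described as healthy, with no treatment or genetic change given. Replicate 1 was a pool of 69 embryos and replicate 2 a pool of 51 embryos, both at 10.5 days, and 10 ng of RNA over the size range of long transcripts entered each library. Because many embryos were pooled, the spread between embryos cannot be seen, and both pools carry the same donor identifier, with nothing in the labels on separate litters. The spread between the libraries may therefore be partly technical, and with 1 library on each side no test between them was made.

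A transmitter-gated channel is a ring of subunits around a pore that opens when a transmitter binds, and the choice of subunits sets which transmitter binds, how fast the channel opens and closes and which ions pass. GABA-A and glycine receptors carry chloride and, with nicotinic receptors, belong to the Cys-loop family; AMPA, kainate and NMDA receptors are the glutamate-gated family and carry cations. In the mature hindbrain glycine and GABA are the main inhibitory transmitters and glutamate the main excitatory one, while embryonic neurons already make many of these subunits before synapses work.

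Of the 36 genes, 17 (47.2%) reached 1 TPM or more in both libraries and are called detected (TPM is a gene's share of all transcripts in the library, corrected for transcript length), against 12622 of the 21461 protein-coding genes, which is 58.8%. The count depended on the measure: 29 of the 36 had at least 10 counts in both libraries, against 67.5% of all protein-coding genes. Over all 36 the median of mean TPM was 1.44, against 4.005 for all protein-coding genes. On the log2(TPM + 0.1) scale averaged over both libraries, the median level was 0.54 for the 36 and 2.01 for all protein-coding genes. The members held 12371 estimated read counts in replicate 1 and 7647 in replicate 2, of 38170090 and 36382245 counts in annotated genes. In a transcript of 1 kilobase effective length, 1 count was worth 0.037 TPM in replicate 1 and 0.0413 TPM in replicate 2, so the levels below about 0.1 TPM given in the text rest on a few reads.

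Nicotinic subunits made up more than all other families together. Their TPM summed to 75.5 in replicate 1 and 50.77 in replicate 2 (63.1 ± 17.5, mean ± SD, n = 2), which was 56.2% and 55.6% of the TPM of the 36 genes, and all 6 genes were detected. AMPA subunits summed to 18.6 and 10.56 TPM (14.6 ± 5.69), with 3 of 4 detected. Glycine subunits summed to 12.76 and 9.68 TPM (11.2 ± 2.18), with 2 of 4 detected, and kainate subunits to 12.31 and 9.89 TPM (11.1 ± 1.71), with 3 of 5 detected. GABA-A subunits, although the family with the most members, summed to 8.86 and 6.04 TPM (7.45 ± 1.99), with 2 of 11 detected. NMDA subunits had the lowest sum, 6.37 and 4.34 TPM (5.36 ± 1.44), with 1 of 6 detected. The nicotinic sum stood apart from the others in both libraries, the glycine and kainate sums lay within each other's spread, and every family sum was higher in replicate 1 on the TPM scale, although spike-in scaling turns the members' median ratio below 0 (-0.25). The sums cover the listed members; other subunit genes of these families are not analysed here.

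**Figure D1:**
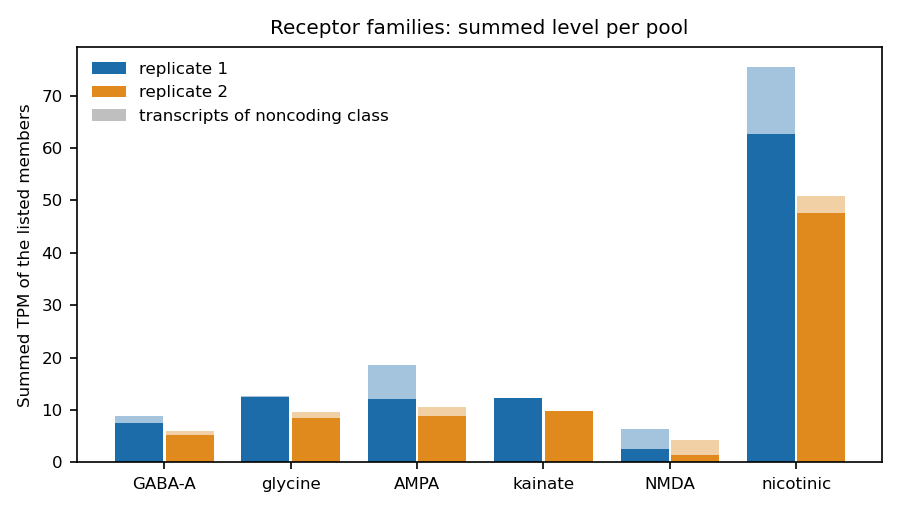
Summed TPM of the listed members of each receptor family in replicate 1 (blue) and replicate 2 (orange), with the pale top of each bar holding transcripts annotated as retained intron, processed transcript or nonsense-mediated decay. An exception is Gabra2 (2.45 and 1.31 TPM), whose only transcript is classed as nonsense-mediated decay and is kept in the solid part of the GABA-A bars. The solid part of the kainate bars also holds Grik2 (4.07 and 4.08 TPM), whose transcripts with counts have no match in GENCODE M21 and are of unknown class. The nicotinic bars reach 75.5 and 50.77 TPM and no other bar passes 18.6.

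**Figure D2:**
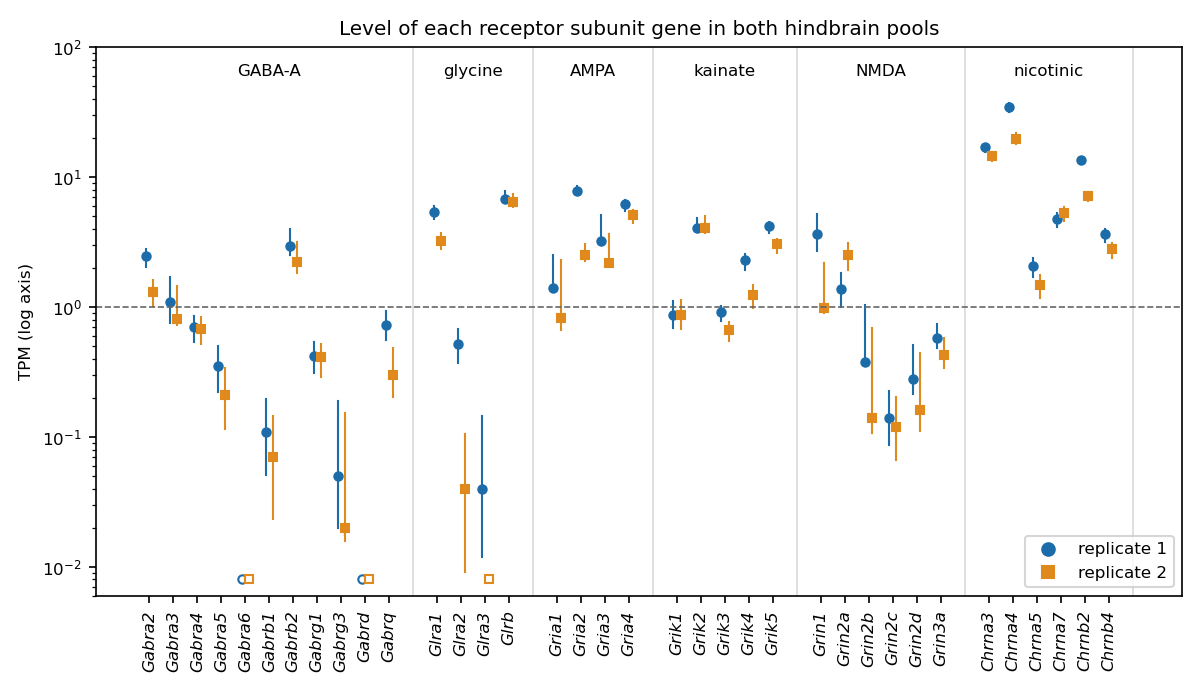
TPM of each of the 36 genes on a log axis in replicate 1 (blue circles) and replicate 2 (orange squares); vertical lines run between the interval bounds the authors deposited, open symbols at the bottom mark genes listed at 0, and the dashed line is 1 TPM. Chrna4, Chrna3 and Chrnb2 are the highest 3 genes by mean TPM, and Gabra6 and Gabrd are listed at 0 in both libraries.

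Chrna4, Chrna3 and Chrnb2 led the order by mean TPM, although Gria2 in replicate 1 was above Chrnb2 in replicate 2. Glrb, Gria4, Gria2 and Chrna7 followed with means of 6.60, 5.61, 5.16 and 5.03 TPM, and the pair of values of Gria2 (7.82 and 2.5 TPM) spanned those of the other 3, so their order is not settled by these libraries.

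Among nicotinic receptors, Chrna4 encodes the alpha4 subunit, which with the beta2 subunit of Chrnb2 forms the most widespread nicotinic receptor of the brain. Chrna4 stood first of the 36 in both libraries, with 34.7 TPM for replicate 1 and 19.71 TPM for replicate 2. Chrnb2 had 13.45 and 7.13 TPM. The gene lies at chr3:89746195-89764632 on the minus strand (mm10), and its exons share 1365 bases with Adar on the other strand, a gene at 14.88 and 14.65 TPM. Whether reads were counted by strand is not stated, so reads of the shared stretch cannot be told apart and the Chrnb2 level is uncertain.

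Chrna3 and Chrnb4 encode the alpha3 and beta4 subunits, the pair typical of autonomic ganglia and of a few brainstem and habenular neurons, and Chrna5 encodes an accessory subunit that joins either pair. The 3 genes are neighbours on chromosome 9, Chrna5 at chr9:54980880-55007779 on the plus strand, Chrna3 at chr9:55010111-55026562 and Chrnb4 at chr9:55028154-55048779 on the minus strand. Chrna3 had 16.9 and 14.38 TPM, second to Chrna4 in both libraries. Chrnb4 had 3.64 and 2.78 TPM and Chrna5 had 2.06 and 1.47 TPM. All 3 neighbours were detected, and their order Chrna3, Chrnb4, Chrna5 was the same in both libraries. Chrna7, whose alpha7 subunit forms channels by itself, had 4.75 and 5.3 TPM from 256 counts in each library.

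The ratio of Chrna3 to Chrna4 was 0.487 in replicate 1 and 0.73 in replicate 2, and that of Chrnb4 to Chrnb2 was 0.271 and 0.39, so in both libraries the alpha4 and beta2 genes were above the alpha3 and beta4 genes. Part of the Chrna4 level came from Chrna4-204, a transcript of 712 bases annotated as processed, which held 12.81 and 3.14 TPM from 212 and 46.7 counts. The coding transcript Chrna4-201 (4565 bases) held 21.89 TPM from 2643 counts in replicate 1 and 16.57 TPM from 1793 counts in replicate 2. On coding transcripts alone the ratio of Chrna3 to Chrna4 was 0.772 and 0.868, with Chrna4 still above Chrna3 in both libraries, though the coding level of Chrna4 in replicate 2 was below the Chrna3 level of replicate 1.

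Muscle-type nicotinic genes are not among the 36 and are given because muscle in the dissected tissue would carry them. Chrnb1 was detected with 1.25 and 1.82 TPM, Chrna1 had 0.55 and 0.84 TPM, Chrng had 0.29 and 1.12 TPM, and Chrnd was listed at 0 in replicate 1 and had 0.09 TPM in replicate 2. Of the other genes of the skeletal muscle list, Actc1, a muscle actin of heart and skeletal muscle, had 5.04 and 13.93 TPM and Myf5, a regulator of muscle precursors, had 3.47 and 0.94 TPM, while Myog, Myod1 and Ttn were at or under 0.27 TPM.

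Glycine receptors are built from alpha subunits, which bind glycine, and the beta subunit, which anchors the receptor at the synapse. Glrb, the beta subunit gene, was the highest of the family with 6.79 and 6.4 TPM. Glra1, whose alpha1 subunit is known as the adult form of brainstem and spinal cord, had 5.41 and 3.24 TPM from 334 and 180 counts. Glra2, whose alpha2 subunit is known as the embryonic form, had 0.52 TPM from 43 counts in replicate 1 and 0.04 TPM from 3 counts in replicate 2. Glra3 had 2 counts in replicate 1 and none in replicate 2. The ratio of Glra2 to Glra1 was 0.0961 and 0.0123, so the alpha1 gene was far above the alpha2 gene in both libraries.

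Both glycine genes that were detected came mainly from coding transcripts. Glra1-202 held 97.8% and 100% of the gene's TPM, and Glrb-201 held 95.4% and 80.8%. By posterior mean TPM the shares were 95.9% and 96.6% for Glra1-202 and lower, 81.6% and 69.5%, for Glrb-201. In replicate 2 the posterior mean put 20.0% of Glrb in Glrb-204, a transcript classed as nonsense-mediated decay.

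GABA-A receptors combine alpha and beta subunits, between which GABA binds, with a gamma, delta or theta subunit that sets their place and drug sensitivity. The family was represented mainly by Gabrb2, a beta subunit gene with 2.97 and 2.23 TPM, and Gabra2, an alpha subunit gene with 2.45 and 1.31 TPM. Next came Gabra3 with 1.09 and 0.81 TPM from 61 and 70 counts, under the limit of detection in replicate 2. In replicate 1, 0.53 TPM came from 6.96 counts in Gabra3-203, a processed transcript of 589 bases. The coding level of Gabra3 was 0.56 and 0.81 TPM. Gabra4 had 0.7 and 0.68 TPM, Gabrq 0.72 and 0.3 TPM, Gabrg1 0.42 and 0.41 TPM and Gabra5 0.35 and 0.21 TPM. Gabrb1 had 9 and 5 counts and Gabrg3 had 2 and 4 counts. Gabra6, known as the alpha subunit of cerebellar granule cells, and Gabrd, the delta subunit found mostly outside synapses, were listed at 0 in both libraries. The upper bounds the authors deposited were 0.120 and 0.135 TPM for Gabra6 and 0.373 and 0.411 TPM for Gabrd, so the listed 0 does not exclude a low level.

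The GABA-A genes lie in clusters, and within a cluster the levels differed. On chromosome 5 the order along the sequence is Gabrg1 (chr5:70751047-70842617), Gabra2 (chr5:70957597-71095849), Gabra4 (chr5:71569749-71658308) and Gabrb1 (chr5:71658113-72149037), and of these only Gabra2 was detected. The ratio of Gabra2 to Gabra4 was 3.5 in replicate 1 and 1.93 in replicate 2. On chromosome 11 Gabra6 (chr11:42306437-42321072), listed at 0, lies beside Gabrb2 (chr11:42419757-42629028), the highest gene of the family. The ratio of Gabrb1 to Gabrb2 was 0.037 and 0.0314. The ratio of Gabrg1 to Gabrg3 was 8.4 and 20.5, but it rests on 2 and 4 counts in Gabrg3.

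AMPA receptors carry most fast excitatory transmission, and Gria2 encodes the GluA2 subunit, whose edited form keeps calcium out of the channel. Gria4 had 6.16 and 5.06 TPM, Gria2 had 7.82 and 2.5 TPM, Gria3 had 3.21 and 2.18 TPM and Gria1 had 1.41 and 0.82 TPM. Gria2 was the highest of the 4 in replicate 1 and Gria4 in replicate 2, while Gria1 was the lowest in both. The ratio of Gria2 to Gria4 was 1.27 in replicate 1 and 0.494 in replicate 2, on either side of 1.

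Much of the Gria2 level lay in transcripts that are not annotated as coding. Transcripts annotated as coding held 2.33 and 1.39 TPM, which was 29.9% and 55.8% of the gene's TPM. The retained-intron transcript Gria2-206 (3462 bases) alone held 3.27 TPM from 297 counts in replicate 1 and 0.58 TPM from 47.6 counts in replicate 2. Without the noncoding classes Gria2 lay under Gria4 in both libraries, at ratios of 0.378 and 0.275, and above Gria1, at 1.64 and 1.7. Gria2 and Gria3 then stood side by side, at ratios of 1.06 and 0.921. The rank of Gria2 within the family therefore depended on whether the noncoding classes were included.

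Each AMPA receptor gene has a pair of alternative exons of 115 bases, flip and flop, of which a transcript normally uses 1, and they encode the end of the ligand-binding region that sets how fast the channel desensitizes. They are shown for the genes of highest mean AMPA level, read from the GENCODE M21 transcripts of mm10 from 5′ to 3′, with the bases that differ between flip and flop in capitals. In Gria2, flop lies at chr3:80690404-80690518 and flip at chr3:80691320-80691434, and in Gria4, flop lies at chr9:4427030-4427144 and flip at chr9:4432773-4432887, all on the minus strand.
Gria2 flop: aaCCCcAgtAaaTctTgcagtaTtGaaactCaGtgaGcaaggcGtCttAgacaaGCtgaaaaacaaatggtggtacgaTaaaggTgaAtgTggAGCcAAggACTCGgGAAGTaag
Gria2 flip: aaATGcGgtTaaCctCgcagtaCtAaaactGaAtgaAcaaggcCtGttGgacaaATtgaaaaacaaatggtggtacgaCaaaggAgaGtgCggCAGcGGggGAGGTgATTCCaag
Gria4 flop: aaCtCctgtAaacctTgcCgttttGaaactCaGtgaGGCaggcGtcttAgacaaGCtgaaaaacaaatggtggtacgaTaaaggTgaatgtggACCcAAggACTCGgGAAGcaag
Gria4 flip: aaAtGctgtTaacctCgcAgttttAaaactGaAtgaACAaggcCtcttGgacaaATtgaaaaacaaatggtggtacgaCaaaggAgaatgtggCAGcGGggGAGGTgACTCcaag
The exons differ at 36 of 115 bases in Gria2 and at 31 of 115 in Gria4, spread over the exon.

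Among transcripts that hold exactly 1 of the 2 exons, flop transcripts held most of the TPM in all 4 genes and both libraries. In Gria2 the flop share was 63.1% in replicate 1 and 89.2% in replicate 2. Gria2 flop had 156 and 118 counts. Gria2 flip had 238 and 37.7 counts in a much longer transcript of 10371 bases, so by counts without length flip led in replicate 1. In Gria4 the flop share was 91.7% and 100%, from 301 and 268 counts of flop, against 27.4 counts of flip in replicate 1 and none in replicate 2. The flop share was 84.5% and 100% in Gria1, from 176 and 85.2 counts of flop, and 71.8% and 57.6% in Gria3.

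With the posterior mean TPM, the flop share was 60.8% and 86% in Gria2, 83% and 88.2% in Gria4, 79.9% and 79.7% in Gria1 and 66.8% and 58.3% in Gria3. The flip and flop transcripts also differ in length in Gria1, Gria2 and Gria3. Those of Gria4 both have 5441 bases but differ in exons other than flip and flop too. In each gene the shares are those of whole transcripts as the authors estimated them and not of reads over the exon. In Gria4 the largest share, 63% and 59.1% of the gene's TPM, lay in Gria4-203, a shorter coding transcript of 2338 bases that holds neither exon.

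Kainate receptors also act at and beside excitatory synapses, with low-affinity subunits (Grik1 to Grik3) that can form channels and high-affinity subunits (Grik4 and Grik5) that need them as partners. Grik2 had 4.07 and 4.08 TPM and Grik5 had 4.17 and 3.03 TPM, the leading gene of each class. Grik4 had 2.29 and 1.24 TPM. Grik1 had 0.87 TPM in both libraries and Grik3 had 0.91 and 0.67 TPM, below the limit of detection. Thus 1 of 3 low-affinity genes and 2 of 2 high-affinity genes were detected. All transcripts of Grik2 with counts have no match in GENCODE M21, so their class is unknown. Grik4-201 held 79.1% and 75.8% of the TPM of Grik4.

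NMDA receptors need the GluN1 subunit of Grin1 together with a GluN2 subunit, which binds glutamate, or a GluN3 subunit. Grin1 had 3.62 TPM from 139 counts in replicate 1 and 0.98 TPM from 41 counts in replicate 2, which placed it just outside detection. Grin2a, the GluN2A gene, was the only detected member, with 1.37 and 2.51 TPM from 64 and 94 counts. Grin2b and Grin2d, whose subunits are known as the embryonic GluN2 forms, had 0.38 and 0.14 TPM and 0.28 and 0.16 TPM. Grin2c, best known from the adult cerebellum, had 0.14 and 0.12 TPM. The ratio of Grin2d to Grin2c was 2 and 1.33, from at most 41 counts a gene. Grin3a had 0.58 and 0.43 TPM.

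For coding transcripts the gene-level order of Grin2a and Grin2b held in replicate 2 but not in replicate 1. Grin2a-203, a retained-intron transcript of 1099 bases, held 80.3% and 85.3% of the TPM of Grin2a from 29.7 and 52 counts. Its coding transcript held 0.27 and 0.37 TPM from 34 and 42 counts, and the coding transcripts of Grin2b had 50 and 6 counts. In replicate 2, 0.12 TPM of Grin2b came from 1.74 counts in Grin2b-204, a transcript of 703 bases. The ratio of Grin2b to Grin2a was 0.277 and 0.0558 at the gene level and 1.41 and 0.378 without the noncoding classes, so the order in replicate 1 turned. Grin2a then no longer counted as detected. Coding transcripts of Grin1 held 1.03 and 0.31 TPM, which was 28.5% and 31.6% of the gene's TPM, and the rest lay in short processed transcripts such as Grin1-210 (456 bases), with 12.5 counts in replicate 1 and 0.42 in replicate 2. Grin1 also shares 1307 exonic bases with Grin1os on the other strand, a gene at 0.04 and 0.02 TPM. Without the noncoding classes the NMDA sum was 2.58 and 1.42 TPM.

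**Figure D3:**
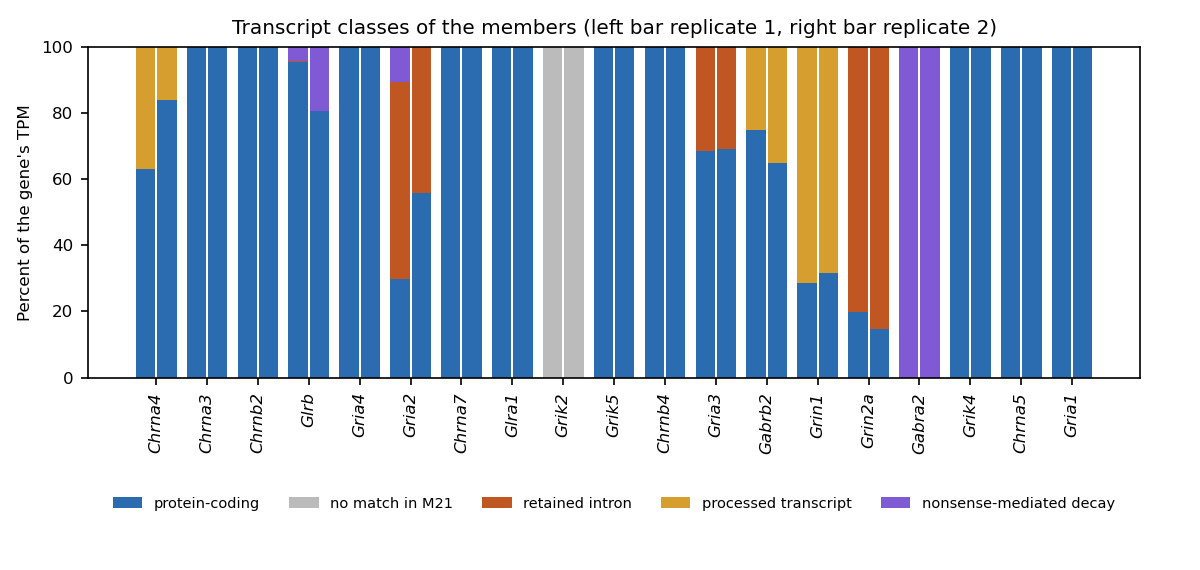
Percent of each gene's TPM in transcripts of each GENCODE M21 class for the 19 members that averaged 1 TPM or more, in order of level, with replicate 1 as the left bar and replicate 2 as the right bar of each pair. Noncoding classes hold most of the TPM of Grin1 and Grin2a in both libraries and of Gria2 in replicate 1; the single transcript of Gabra2 is classed as nonsense-mediated decay, and the transcripts of Grik2 have no match.

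The pools differed in the level of these genes. Taking the 19 members that averaged 1 TPM or more, the median log2 ratio of replicate 1 over replicate 2 (TMM-scaled counts, prior count 2) was 0.56, a 1.47-fold difference, and 17 of 19 (89.5%) were above 0. For all 12993 protein-coding genes with the same mean level the median was 0.004, with 50.7% above 0, and for the 4483 genes of 1 to 10 TPM it was 0.07, with 56.1% above 0. Scaled by spike-ins, the members had a median of -0.25 and all genes one of -0.81, so the sign turned on that scale while the members stayed above the median of all genes.

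In bulk RNA, fewer cells of a type and less RNA per cell cannot be told apart. Cell type markers also differed between the pools. Their counts of detected genes stand beside 58.8% of all protein-coding genes. Each of the 14 listed markers of postmitotic neurons was detected and stood higher in replicate 1; their TPM summed to 2742 and 1706, and their median log2 ratio was 0.97. All 12 progenitor markers were detected, summing to 2677 and 2285 TPM with a median of 0.13. Markers of cranial sensory ganglia, 11 of 12 detected, summed to 270 and 284 TPM with a median of -0.35, and neural crest markers, 4 of 5 detected, to 31.3 and 59.8 TPM with a median of -1.17. Both lists were split: of the markers that passed the filter, 4 of 11 for ganglia and 1 of 4 for crest, Tfap2a, were higher in replicate 1. Of the 4 motor neuron markers that passed the filter (all 6 sum to 79 and 80.9 TPM), Isl1, also a ganglion marker, was lower in replicate 1 and the other 3 higher; the median was 0.94. Of 9 skeletal muscle markers 2 were detected (sums 11.1 and 19.3 TPM), with Chrnd listed at 0 in replicate 1. Of 6 glial markers 4 were detected (sums 32.4 and 40.3 TPM), with Gfap at 0.01 and 0.15 TPM. The part of these cell types in the difference between the pools was not tested.

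At least 2-fold higher in replicate 1 were 3 of the 19 members, Gria2, Grin1 and Gria1, against 4.16% of the 12993 protein-coding genes of the same filter and 8.77% of the genes of 1 to 10 TPM. Grin1 and Gria1 were under 1 TPM in replicate 2 (0.98 and 0.82 TPM) and passed the filter on mean TPM through replicate 1, so the count of 3 is no support for a difference. Of the 17 members detected in both libraries 1, Gria2, passed 2-fold, against 3.22% of the 12622 protein-coding genes detected in both, and the median log2 ratio of these 17 was 0.56, against 0.002. None of the 19 was 2-fold higher in replicate 2, against 1.02% of the 12993 protein-coding genes. Gria2 had 924 counts in replicate 1 and 251 in replicate 2, a log2 ratio of 1.79 and a 3.49-fold difference in scaled counts (95% exact counting interval 3.03 to 4.03). Grin1, with 139 and 41 counts, had a log2 ratio of 1.64 and a 3.21-fold difference (2.25 to 4.67). Gria1, with 207 and 86 counts, had a log2 ratio of 1.17 and a 2.28-fold difference (1.77 to 2.97). Under spike-in scaling none of the 3 passed 2-fold, and that scaling shifts the median of all genes by -0.816 on the log2 scale. The intervals cover counting error only and do not hold the spread between pools.

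Without the noncoding classes the same 3 genes were the ones past 2-fold, against 4.59% of protein-coding genes, and Gria2 then had a 2.40-fold difference (1.99 to 2.91). Chrnb2 lay just under the 2-fold limit with 1922 and 913 counts and a 1.99-fold difference (1.84 to 2.16). Its counts may include reads of the stretch shared with Adar. Gabra2 and Grik4 followed with log2 ratios of 0.96 and 0.93. Glra1 had 0.81, Gria3 and Gabrb2 had 0.68 each, and Chrna5 and Chrna4 had 0.56 each. Grik5 had 0.54 and Chrnb4 had 0.47, while Gria4, Chrna3, Grik2 and Glrb lay between 0.31 and 0.17.

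The members below 0 were Chrna7, at -0.08, and Grin2a, at -0.62. Grin2a was the only one of the 19 whose counting interval lay wholly below 1 (0.645-fold, 0.462 to 0.896), and without the noncoding classes that interval was 0.473 to 1.24. Among subunits that can pair in 1 receptor, Chrnb2 was 1.99-fold (1.84 to 2.16) and Chrna4 1.47-fold higher (1.39 to 1.56), intervals that did not overlap. The Chrnb2 interval leaves out the uncertainty from the exonic bases shared with Adar. Glra1 was 1.76-fold (1.46 to 2.12) and Glrb 1.13-fold (0.991 to 1.28), also without overlap, but without the noncoding classes the Glrb interval of 1.16 to 1.52 overlapped that of Glra1. The intervals of Chrna3 (1.15 to 1.35) and Chrnb4 (1.17 to 1.65) overlapped, as did those of Gabra2 (1.48 to 2.64) and Gabrb2 (1.31 to 1.99). Among the members under the level filter, Glra2 (13.6-fold, 4.35 to 68.4), Grin2b (7.89-fold, 3.38 to 22.5) and Gabrq (2.74-fold, 1.76 to 4.38) were also past 2-fold, from 43, 50 and 81 counts in replicate 1 and 3, 6 and 28 counts in replicate 2. That makes 6 of 36 with no filter, against 5.78% of all 21461 protein-coding genes.

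**Figure D4:**
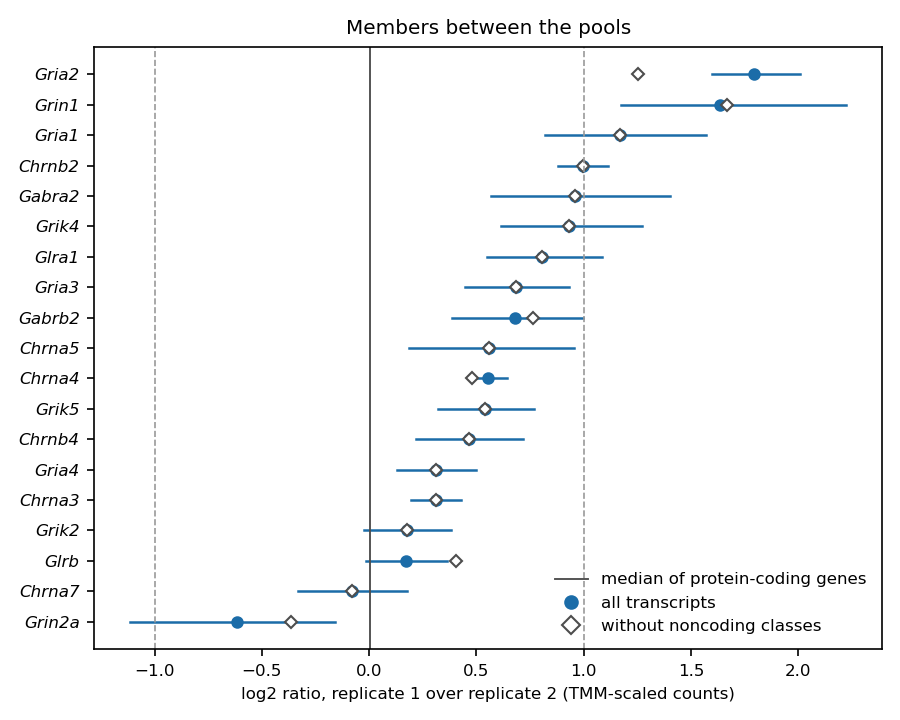
Log2 ratio of replicate 1 over replicate 2 for the 19 members that averaged 1 TPM or more, from all transcripts (blue, with 95% exact counting intervals) and without the noncoding transcript classes (open diamonds); the solid line is the median of protein-coding genes and dashed lines mark 2-fold. Gria2, Grin1 and Gria1 lie beyond 2-fold at 1.79, 1.64 and 1.17, and only Chrna7 and Grin2a lie below 0.

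Genes that work with the receptors were described from lists of companions. The counts of detected genes in these lists stand beside 58.8% of all protein-coding genes outside the mitochondrial genome. Of 13 auxiliary subunits of AMPA and kainate receptors 5 were detected, led by Cnih2, a cornichon protein that escorts AMPA receptors, with 93.5 and 35.79 TPM, which was above every AMPA subunit. Cacng4, a TARP subunit, had 12.57 and 7.5 TPM, and Neto2, a partner of kainate receptors, had 10.96 and 11.4 TPM. Cacng2, the founding TARP gene, had 0.73 and 0.2 TPM.

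Most of the listed scaffold genes were detected, as were 58.8% of all protein-coding genes. Of 14 glutamate receptor scaffolds 12 were detected, among them Dlg4, which encodes PSD-95, with 15.99 and 12.81 TPM. Of 7 genes for scaffolds and trafficking proteins of inhibitory synapses 7 were detected, among them Gphn, the gephyrin gene that anchors glycine and GABA-A receptors, with 11.63 and 11.48 TPM. Of 6 nicotinic chaperones and modulators 5 were detected, with the chaperone genes Ric3 at 13.74 and 14.8 TPM and Tmem35a at 17.65 and 11.5 TPM.

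Of 15 metabotropic receptor genes, which act through G proteins for the same transmitters, 4 were detected, the highest being Grm2 with 20.18 and 17.79 TPM and Gabbr1 with 13.56 and 9.14 TPM. Gabbr2, the obligatory partner of Gabbr1 in the GABA-B receptor, had 0.22 and 0.2 TPM. The chloride transporters that set the direction of GABA and glycine currents were both detected, the importer Slc12a2 with 3.22 and 4.97 TPM and the exporter Slc12a5 with 3.25 and 1.89 TPM. The exporter was thus the lower of the pair in replicate 2, while both were at one level in replicate 1. Of the RNA editing enzymes, Adarb1, which edits the Gria2 message, had 6.2 and 4.8 TPM.

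Among the companion lists, transmitter synthesis and vesicle loading had the median farthest from 0 between the pools. Of its 9 genes 4 were detected, against 58.8% of all protein-coding genes. The 5 that passed the filter on mean TPM had a median log2 ratio of 2.08, with 5 of 5 higher in replicate 1. Slc6a5 was under 1 TPM in replicate 2 and passed through replicate 1, so the 5 of 5 is partly set by the filter. Under the filter, Slc17a7 was lower in replicate 1 (0.5 and 0.81 TPM), while Slc32a1, Slc17a8 and Chat were higher there. Gad2, which makes GABA, had 10.69 and 1.02 TPM, Slc6a5, the glycine transporter of glycinergic neurons, had 2.89 and 0.49 TPM, and Slc17a6, which loads glutamate, had 11.62 and 4.87 TPM. The medians were 0.72 for auxiliary subunits, 0.70 for nicotinic chaperones, 0.61 for metabotropic receptors, 0.45 for inhibitory scaffolds and 0.17 for glutamate scaffolds. These medians turned below 0 under spike-in scaling, as did those of the transporters and editing enzymes, while that of transmitter synthesis stayed above 0 at 1.26.

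**Figure D5:**
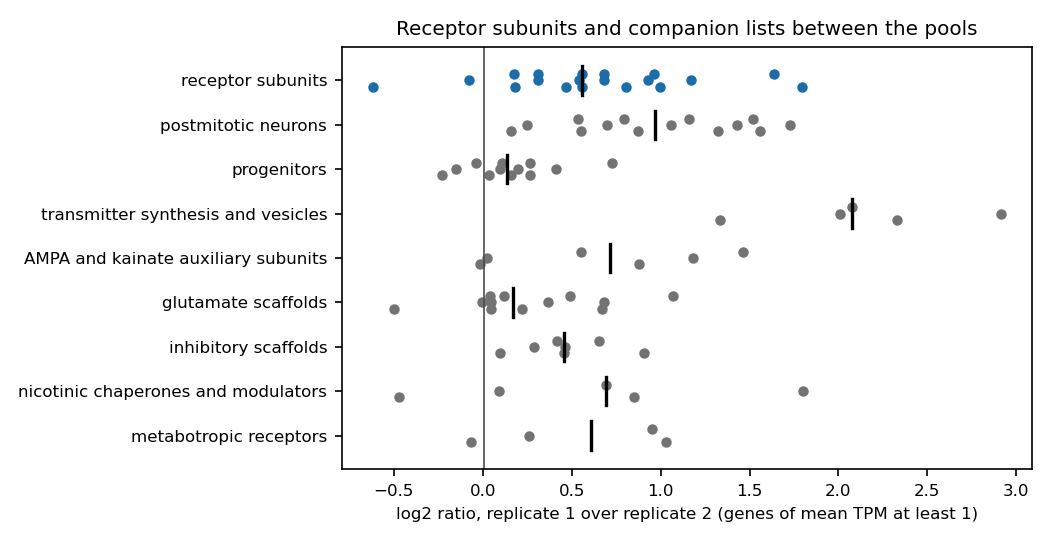
Log2 ratio of replicate 1 over replicate 2 for each gene that averaged 1 TPM or more in the receptor subunits (blue) and in some of the marker and companion lists (grey), with the median of each list as a black bar. The lists of cranial sensory ganglia, neural crest, skeletal muscle, glia, motor neurons, chloride transporters and editing enzymes are not drawn. Their medians were -0.35, -1.17, -0.43, -0.18, 0.94, 0.16 and 0.26. Neuron markers and receptor subunits lie mostly right of 0 with medians of 0.97 and 0.56, and the 5 transmitter synthesis genes lie farthest right with a median of 2.08.

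Promoters from 250 bases before to 50 bases after the start were given by RefSeq (GRCm38.p6, the mm10 assembly) for 28 of the 36 genes, 33 promoters in all. Gabrd, Glra1, Gria1, Gria3, Grik1, Grin2a, Grin2b and Grin3a had none. The member promoters had a median of 13 CpG dinucleotides and 60.7% G and C, against 7 and 52.7% in all 32851 promoters. Taking each gene's promoter with the most CpG, the 14 detected genes had 10 to 42 (median 25) and the 14 genes not detected had 0 to 50 (median 12.5), so the ranges overlapped widely. The promoters of the highest member, Chrna4 (chr2:181039128-181039427, minus strand, 33 CpG), and of Gabra6 (chr11:42321023-42321322, minus strand, 2 CpG), listed at 0, are shown with each CpG in capitals.
Chrna4 promoter: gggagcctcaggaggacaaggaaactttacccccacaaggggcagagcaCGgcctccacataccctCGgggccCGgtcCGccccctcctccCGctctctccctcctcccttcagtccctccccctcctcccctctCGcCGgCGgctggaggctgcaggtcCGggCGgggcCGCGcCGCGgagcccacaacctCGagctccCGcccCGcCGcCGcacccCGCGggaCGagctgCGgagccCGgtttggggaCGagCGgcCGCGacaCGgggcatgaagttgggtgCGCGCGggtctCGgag
Gabra6 promoter: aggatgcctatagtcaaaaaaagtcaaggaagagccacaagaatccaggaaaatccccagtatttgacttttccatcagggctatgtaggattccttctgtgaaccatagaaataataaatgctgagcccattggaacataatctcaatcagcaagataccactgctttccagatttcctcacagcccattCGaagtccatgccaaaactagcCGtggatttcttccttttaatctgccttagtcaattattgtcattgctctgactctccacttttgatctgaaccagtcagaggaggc
The count of CpG did not follow detection gene by gene: Grik3, not detected, had the most of all members, 50.

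The RE1 element, through which the repressor REST keeps many neuronal genes off in other cells, was searched by its left and right parts, which do not overlap, on both strands. CAGCACC was in 1 of 33 member promoters (3.03%), that of Gabrq, against 7.14% of all promoters. GGACAG was in 13 of 33 (39.4%), against 22.2% of all, and none of the 33 held both, against 1.73% of all. A match of so few letters is not a binding site, and no match says only that these letters are not in this window.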

How the data were processed

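Total RNA from 2 pools of hindbrain was sequenced; per the labels' protocols RNA was extracted with the mirVana kit and spike-in RNAs were added. The deposited gene and transcript tables hold, per the file headers, expected counts (estimated, with reads that fit several transcripts divided between them), TPM, posterior mean TPM and FPKM, on assembly mm10 and annotation M4 per the deposited file notes. The interval bounds on TPM, treated as a signal with no stated level, were also deposited by the authors. Aligner, quantification program and strand use: not given in the sources used here. Of all TPM, spike-ins made up 13.03% for replicate 1 and 7.82% for replicate 2.

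Gene symbols, classes and coordinates came from GENCODE M21 by identifier without its version, which found 42462 of 43346 genes (884 left over). The 36 genes and all lists were chosen with earlier results of these data known. Named were all 36, list members, genes nearest 1 TPM, and isoforms with at least 10% of a gene's TPM in both libraries; further transcripts were named after their values were seen. Detection meant at least 1 TPM in both libraries. Rounded expected counts of all annotated genes were scaled by TMM in edgeR 4.0.16 (R 4.3.3) with a prior count of 2; the ratio step was tested on simulated data. With 1 library on each side no p-value was computed, and count intervals are exact binomial at 95% and cover counting error only. The main comparison used genes of mean TPM at least 1. Alternatives were posterior mean TPM, FPKM, other thresholds, pseudocounts, filters and prior counts, scaling by spike-ins, by total count or by size factors from DESeq2 1.42.0, and each library left out. Leaving out noncoding transcript classes (retained intron, processed transcript, nonsense-mediated decay, except where a gene has no other) was chosen after seeing the data, as were the flip and flop shares and a filter of 1 TPM in both libraries. Protein sequences were not used here. Tables and figures used Python 3.11.15, pandas 2.3.3, numpy 2.4.6, scipy 1.17.1 and matplotlib 3.10.9.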

Additional observations from a re-analysis of the deposited data

How the results depend on the processing

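The number of detected members was 17 of 36 (58.8% of protein-coding genes; percents here give the share of all protein-coding genes under the same setting). It was 13 in FPKM (56%), 13 at 2 TPM (54.2%), 20 by posterior mean TPM (60.1%), 23 at 0.5 TPM (63.1%), 16 without noncoding transcript classes (57.4%) and 17 to 20 with 1 library; with at least 10 counts in both libraries it was 29 (67.5%). The median level of 0.54 was -0.024 in FPKM, 1.25 with a pseudocount of 1, 1.87 over members of mean TPM at least 1, and 0.034 to 0.58 with either library left out. Without noncoding transcript classes the mean NMDA sum was 2.0 TPM. The members at least 2-fold higher in replicate 1 numbered 6 of 36 with no filter (5.78%), 1 of 7 averaging 5 TPM or more (2.42%) and 1 of 17 with at least 1 TPM in both libraries (3.22%), the last chosen after seeing the data. At a limit of 1.5-fold 9 of 19 were higher in replicate 1 (9.83%) and 1 in replicate 2 (4.19%). Under spike-in scaling 0 of 19 were 2-fold higher in replicate 1 (0.854%) and 1 in replicate 2 (25.5%), with a median of -0.249 (all genes -0.812). The median was 0.312 over members averaging 5 TPM or more. Spike-in scaling also turned the medians of auxiliary subunits (-0.1), glutamate scaffolds (-0.648), inhibitory scaffolds (-0.366), nicotinic chaperones (-0.122), metabotropic receptors (-0.211), chloride transporters (-0.657) and editing enzymes (-0.553); it shifts all genes by -0.816, and the cause of that shift was not tested. DESeq2 size factors, total count and another prior count left the counts of 2-fold members at 3 or 4 and the median at 0.56 or 0.57. No paired analysis was possible because there is a single group. Depth limits the members under 0.1 TPM, which rest on under 10 counts, and isoform shares of genes with few counts.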
